A study of Saccharomyces cerevisiae with 6 samples.

Results

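The medium dependence of the rapamycin response was measured in S288c, the laboratory strain of Saccharomyces cerevisiae whose genome serves as the reference for budding yeast. For each gene it is the mean log2 ratio of rapamycin-treated over untreated cells on the 2 MDN arrays, minus the same mean on the 2 YPD arrays. The difference could be formed for 5488 features with a value on all 4 arrays, of 6175 features in the whole table. They comprised 4996 named genes and 492 unnamed spots. A negative difference means that the response was lower in MDN, and a positive one that it was higher in MDN. It is a difference between responses, not a level.

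Poly(A) RNA was compared on arrays with a pair of dye channels. In MDN, S288c cells with rapamycin (Cy5) were set against S288c cells without it (Cy3) on 2 arrays, and in YPD the same comparison was made on 2 arrays. On 1 further array, S288c grown without rapamycin in MDN (Cy5) was set against S288c grown in YPD (Cy3), and an array with SCD was not used here. All groups share the strain, called wild type in the labels, with no other allele named. YPD is a standard rich medium of yeast extract, peptone and glucose, whereas the labels give MDN as an abbreviation only. The labels used here state neither the dose of rapamycin nor how long it acted. Ratios were read as Cy5 over Cy3, which is likely but not stated, so all directions would turn over together if they had been formed the other way. Whether the arrays of a medium came from separate cultures is not stated, so each p-value reflects the array-to-array spread alone, and that spread may be technical.

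Rapamycin bound to the prolyl isomerase Fpr1 inhibits TORC1, a kinase complex that couples growth of yeast to its nutrient supply. Active TORC1 promotes transcription of ribosomal protein and ribosome assembly genes and holds back the GATA activators Gln3 and Gat1, which turn on genes for the use of poor nitrogen sources. These genes are also kept low by preferred nitrogen sources, a control called nitrogen catabolite repression. A separate activator, Gcn4, drives amino acid synthesis genes when amino acids are short.

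The response to rapamycin differed between media for 1620 of 5488 features (29.5%), by limma with Benjamini-Hochberg adjusted p under 0.05. It was lower in MDN for 801 (14.6%) and higher in MDN for 819 (14.9%). Among differences of at least 2-fold the lower ones predominated, with 327 lower in MDN (5.96%) and 169 higher (3.08%), and with arrays set to an equal scale these counts were 356 and 101. The largest belonged to nitrogen and amino acid permeases and to enzymes of purine, one-carbon, histidine and aromatic amino acid metabolism. A typical standard error of a difference was 0.136, and the median difference of all features was 0.02. Without any 1 of the 4 arrays no difference was called, with the lowest adjusted p between 0.0702 and 0.116, and this holds for every gene and gene list named here. The sign of the 1620 differences could not change in these fits, since their MDN and YPD arrays did not overlap. That they kept it is therefore no evidence of stability.

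**Figure D1:**
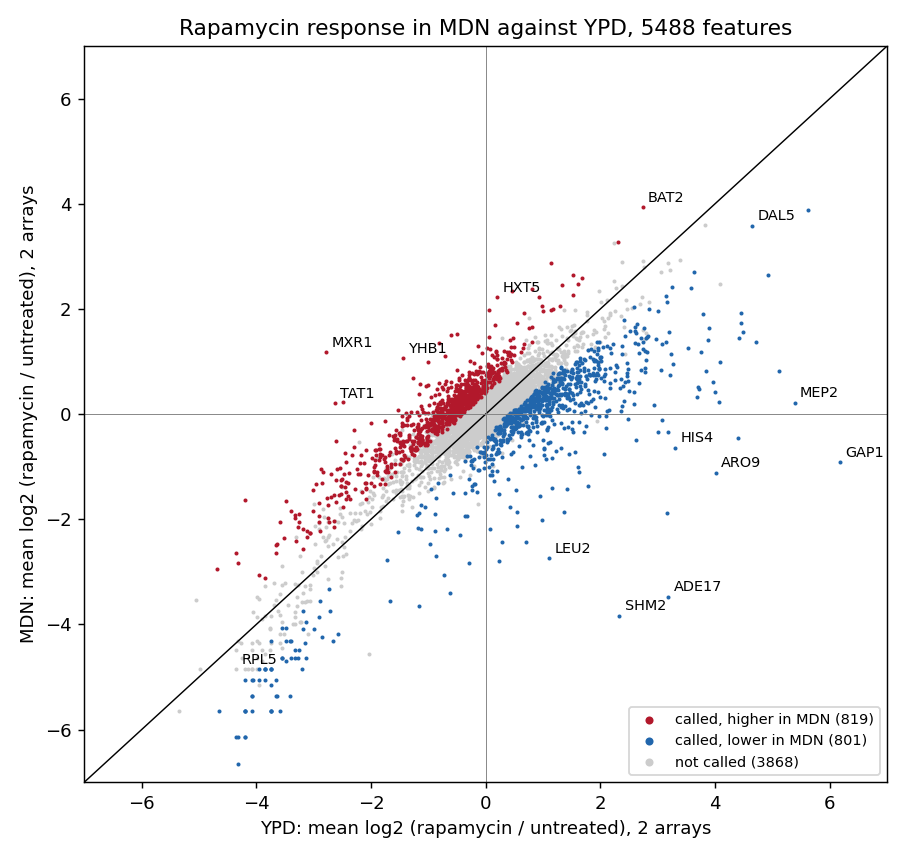
Mean log2 ratio of rapamycin-treated over untreated cells in MDN (vertical axis) against YPD (horizontal axis), 2 arrays each, for 5488 features. Points on the diagonal line had equal responses. Red points were called higher in MDN (819) and blue points lower in MDN (801), and GAP1, ADE17 and SHM2 lie farthest below the line.

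The mean response in MDN was called against 0 for 2968 features (54.1%) and that in YPD for 3638 (66.3%). Across features the means of the 2 media had a Pearson r of 0.80 and a Spearman rho of 0.72, which describes genes and not replicates. Called differences were of several kinds. For 81 features the means were called in opposite directions, down in MDN and up in YPD, and for 90 they were up in MDN and down in YPD. For 297 features both means were up with the larger increase in YPD, and for 52 the larger increase was in MDN. Both means were down with the larger decrease in MDN for 89 features, and with the larger decrease in YPD for 215. Features whose mean was called in MDN alone numbered 159 up and 76 down, and those called in YPD alone numbered 256 up and 296 down.

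Permeases for nitrogen compounds under catabolite repression were mostly lower in MDN, and they included GAP1, the gene with the lowest difference of all. Of 15 measured members, 9 were lower in MDN and 2 higher. The list median was -0.87, beside 0.02 for all features, and it was -0.23 with arrays set to an equal scale. GAP1, the general amino acid permease, had log2 ratios of -0.76 and -1.06 on the MDN arrays, against 6.23 and 6.14 on the YPD arrays. The mean was below 0 in MDN and far above it in YPD, a difference of -7.09 ± 0.15 (SE, n = 2 arrays per medium, 136-fold, adjusted p = 0.000126). MEP2, a high-affinity ammonium permease, was at 0.32 and 0.11 in MDN and at 5.65 and 5.12 in YPD. Its difference was -5.17 ± 0.21 (adjusted p = 0.000614), with MDN values near 0. The MDN and YPD arrays did not overlap for either gene, which was so for 69.1% of all features and for all 1620 called ones.

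The lower-affinity ammonium permease MEP1 followed with -0.27 and -0.40 in MDN and 1.70 and 1.74 in YPD (difference -2.05 ± 0.12), and MEP3 with 0.19 and -0.25 in MDN and 0.77 and 0.90 in YPD (difference -0.87 ± 0.18). The urea permease gene DUR3 rose in both media, by 1.64 in MDN and 3.90 in YPD. AGP1, a broad-range amino acid permease, was at -0.40 and -0.30 in MDN, against 3.42 and 2.93 in YPD, a difference of -3.52 ± 0.19. DAL5, the allantoate permease, behaved differently from GAP1 and MEP2: it was at 3.57 and 3.59 in MDN and 5.0 and 4.30 in YPD. Its difference of -1.06 ± 0.25 (adjusted p = 0.0321) turned to 0.07 (adjusted p = 0.811) with arrays set to an equal scale. The members higher in MDN were DIP5, a permease for dicarboxylic amino acids, with a difference of 0.98 ± 0.17, and the methionine permease MUP1 with 0.81 ± 0.16. PUT4, the proline permease, lacked a value on some arrays.

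**Figure D2:**
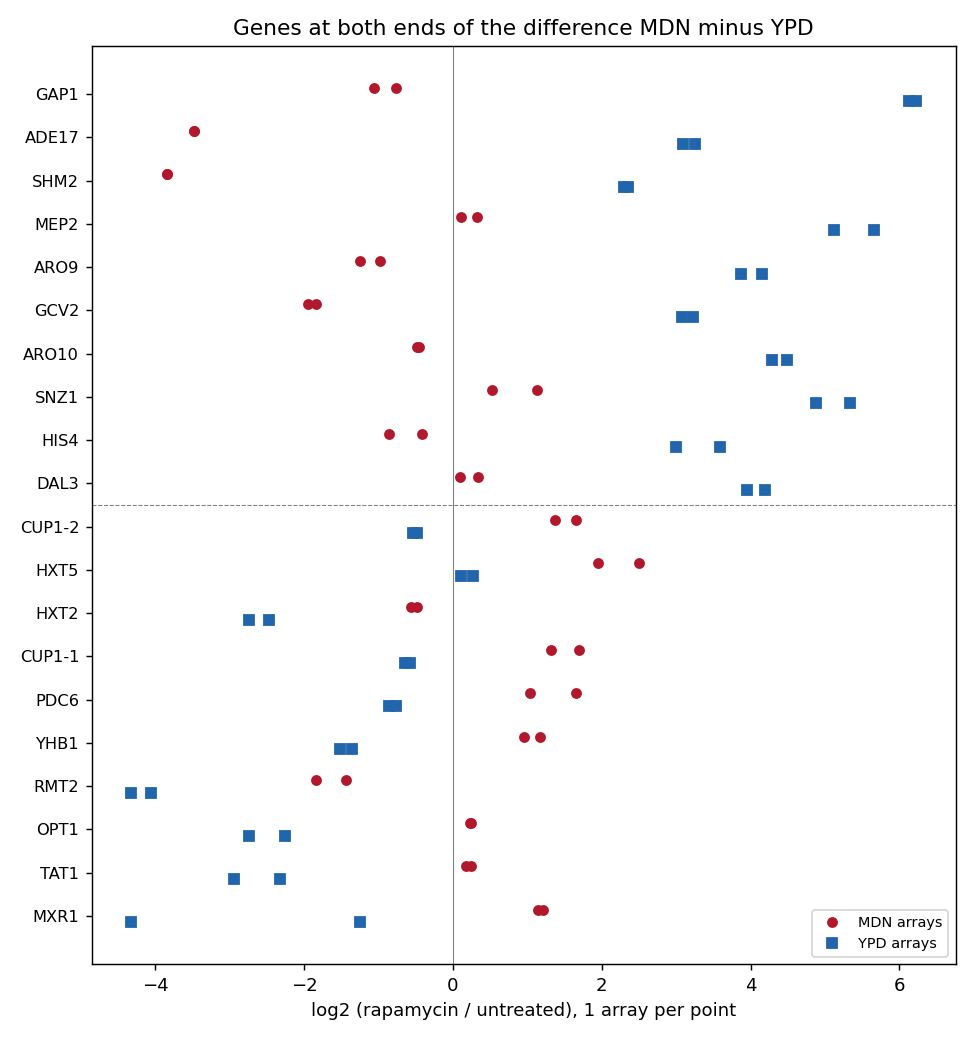
Log2 ratio of rapamycin-treated over untreated cells on each array (horizontal axis) for the 10 genes with the lowest (upper block) and the 10 with the highest (lower block) called difference MDN minus YPD. Red circles are MDN arrays and blue squares YPD arrays. The media do not overlap for the 20 genes, as for every called feature and for 69.1% of all features, and the YPD arrays of MXR1 lie far apart, at -1.25 and -4.32.

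Enzymes that break down nitrogen compounds were lower in MDN in 12 of 20 members and higher in 1, with a median difference of -1.34. The allantoin degradation genes DAL3, DAL2, DAL7 and DAL1 had differences of -3.85 ± 0.15, -3.35 ± 0.13, -3.17 ± 0.13 and -2.76 ± 0.35. DAL3, ureidoglycolate lyase, was at 0.34 and 0.10 in MDN, against 4.19 and 3.95 in YPD. Allantoicase, encoded by DAL2, was at -0.36 and -0.34 in MDN, against 2.90 and 3.10 in YPD. Both enzyme genes were near 0 in MDN, whereas DAL5 was above 3 on all 4 arrays. The vacuolar carboxypeptidase CPS1 (-2.96 ± 0.15) and the proline oxidase PUT1 (-1.38 ± 0.20) were lower in MDN, with both means above 0. The 4 near-identical ASP3 copies, cell-wall asparaginases whose spots may share signal, were all lower. ASP1, the cytosolic asparaginase, was the member that was higher, by 0.58 ± 0.16 (adjusted p = 0.0497).

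Among 13 measured regulators of nitrogen genes, 5 were lower in MDN and 1 higher, and the median was -0.07. DAL80, a GATA repressor, was at 0.91 and 0.72 in MDN, against 3.90 and 3.79 in YPD (difference -3.03 ± 0.13). The activator gene GAT1 was at -0.74 and -0.94 in MDN, against 1.11 and 1.2 in YPD (difference -2.00 ± 0.13), so its ratio lay on opposite sides of 0. The GATA repressor GZF3 had a difference of -1.48 ± 0.13, UGA3, the activator of the GABA genes, one of -1.26 ± 0.11, and NPR1, a kinase that acts on permeases, one of -0.62 ± 0.12. SIT4, a phosphatase of the TORC1 branch, was higher in MDN by 0.51 ± 0.13 (adjusted p = 0.0428). URE2, which holds Gln3 in the cytosol, was not called, at -0.44 ± 0.15 (adjusted p = 0.0858), and GLN3 lacked a value on some arrays. With arrays set to an equal scale NPR1 (adjusted p = 0.0507) and SIT4 (adjusted p = 0.139) lost their calls.

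Glutamine and asparagine synthesis were lower in MDN in 4 of 7 measured members of their list, with none higher. Glutamine synthetase, GLN1, was at 0.65 and 0.64 in MDN, against 2.27 and 2.24 in YPD (difference -1.61 ± 0.11, adjusted p = 0.00167). The asparagine synthetase genes ASN1 and ASN2 had differences of -1.27 ± 0.11 and -0.69 ± 0.12. IDP1, a mitochondrial isocitrate dehydrogenase, had one of -0.83 ± 0.13, which was -0.07 (adjusted p = 0.764) at equal scale. The glutamate dehydrogenases GDH1 (0.22 ± 0.24), GDH2 (-0.63 ± 0.31) and GDH3 (-0.63 ± 0.30) and the glutamate synthase GLT1 (-0.30 ± 0.12) were not called.

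Amino acid synthesis genes responded lower in MDN in most branches, and for HIS4, LEU2 and LYS9 among others the sign of the response was opposite in the 2 media. In lysine synthesis 8 of 9 members were lower, in histidine 6 of 7, in arginine 6 of 8 and in the branched-chain pathway 9 of 12, against 14.6% of all features. The list medians were -1.67, -2.06, -2.54 and -1.38. None of the lysine, histidine or arginine genes was called higher, and BAT2 was the branched-chain gene that was. With centred or equally scaled arrays these 4 lists had between 6 and 9 lower members each.

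The arginine genes rose in both media for 4 of the 6 called members, with larger increases in YPD. ARG1, argininosuccinate synthetase, was at 1.60 and 1.54 in MDN, against 4.40 and 4.56 in YPD (difference -2.91 ± 0.12). ARG3, ornithine carbamoyltransferase, was at 0.19 and 0.45 in MDN, against 3.16 and 4.22 in YPD (difference -3.37 ± 0.36). CPA1, the small subunit of carbamoyl phosphate synthetase, had a difference of -3.36 ± 0.12, and ARG4, argininosuccinate lyase, one of -2.51 ± 0.16. For ARG3 the MDN mean was not called. The aminotransferase ARG8 and the ornithine carrier ORT1 were not called for the difference, at 0.62 ± 0.20 and 0.44 ± 0.12.

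HIS4, which encodes a multifunctional histidine enzyme, was at -0.86 and -0.42 in MDN, against 3.0 and 3.59 in YPD. Its difference was -3.93 ± 0.26 (adjusted p = 0.0016), and the 2 media lay on opposite sides of 0. The histidinol phosphate aminotransferase gene HIS5 rose slightly in MDN, at 0.40 and 0.43, and far more in YPD, at 3.89 and 4.09 (difference -3.57 ± 0.12). HIS6 was the histidine gene not called, at 0.08 ± 0.16. For lysine, saccharopine dehydrogenase genes LYS9 (-2.32 and -2.56 in MDN, 0.74 and 0.67 in YPD) and LYS1 (-0.51 and -0.47 in MDN, 2.62 and 2.63 in YPD) were below 0 in MDN and above 0 in YPD. Their differences were -3.14 ± 0.13 and -3.12 ± 0.11.

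LEU2, isopropylmalate dehydrogenase, was at -2.64 and -2.84 in MDN, against 1.24 and 0.96 in YPD (difference -3.84 ± 0.15). The branched-chain transaminases BAT1 and BAT2 moved apart. BAT1, the mitochondrial enzyme, was at -2.84 and -2.74 in MDN, against 0.32 and 0.15 in YPD, a difference of -3.02 ± 0.12. BAT2, the cytosolic enzyme, was at 4.15 and 3.70 in MDN, against 2.50 and 2.98 in YPD, a difference of 1.19 ± 0.23 (adjusted p = 0.0224). TMT1, a trans-aconitate methyltransferase, rose strongly in both media, by 3.87 in MDN and 5.62 in YPD, and its difference of -1.74 ± 0.21 lost its call at equal scale (adjusted p = 0.359). GCN4, the activator of these pathways, had a small difference in its transcript of -0.52 ± 0.13 (adjusted p = 0.0352), not called at equal scale (adjusted p = 0.0662). Its activity is set in large part at translation and was not measured here.

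Aromatic amino acid genes were mostly lower in MDN in synthesis and in breakdown, with a median difference of -0.82 in both lists, which share the aminotransferase ARO8. Of 13 synthesis genes, 7 were lower in MDN and 2 higher, with TRP4, ARO3, TRP3 and TRP2 between -1.85 and -1.66. Of 5 breakdown genes 4 were lower, ARO8 (-0.82 ± 0.17) among them, and the pyruvate decarboxylase PDC5 was higher (0.64 ± 0.13), but neither ARO8 nor PDC5 was called at equal scale. The aminotransferase ARO9 was at -1.25 and -0.97 in MDN, against 3.87 and 4.15 in YPD (difference -5.12 ± 0.17, 34.7-fold). ARO10, phenylpyruvate decarboxylase, was at -0.47 and -0.45 in MDN, against 4.29 and 4.50 in YPD (difference -4.86 ± 0.13). Both media agreed closely between their arrays and lay far apart from each other. Their activator gene ARO80 had a difference of -0.60 ± 0.13 (adjusted p = 0.0281), and adjusted p was 0.152 at equal scale.

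Serine, glycine and one-carbon genes included some of the strongest reversals. In their list 11 of 20 were lower in MDN and 1 higher. SHM2, cytosolic serine hydroxymethyltransferase, was at -3.84 on both MDN arrays, against 2.30 and 2.35 in YPD (difference -6.16 ± 0.11, 71.6-fold, adjusted p = 9.29e-05). The glycine decarboxylase gene GCV2 was at -1.94 and -1.84 in MDN, against 3.23 and 3.08 in YPD (difference -5.05 ± 0.12). From the same route MTD1, a methylenetetrahydrofolate dehydrogenase, and GCV3, the H protein of glycine decarboxylase, had differences of -2.99 ± 0.13 and -2.62 ± 0.11. GLY1, threonine aldolase, was the member that was higher in MDN, at -0.22 and -0.20, against -1.40 and -1.22 in YPD (difference 1.10 ± 0.12).

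Purine genes were among those with the largest differences. Of 19 measured members 11 were lower in MDN and 4 higher, and the list median was -1.62. The de novo gene ADE17, which carries out the closing steps to inosine monophosphate, was at -3.47 on both MDN arrays, against 3.10 and 3.26 in YPD. Its difference was -6.65 ± 0.12 (101-fold, adjusted p = 9.29e-05), the lowest after that of GAP1. ADE4, the first enzyme of the route, was at -2.12 and -1.60 in MDN, against 1.29 and 1.44 in YPD (difference -3.23 ± 0.20). ADE1, ADE2 and ADE13 also had MDN means below 0 and YPD means above 0, with differences between -3.14 and -2.51. The members higher in MDN were AAH1, adenine deaminase (1.52 ± 0.20), GUA1, guanosine monophosphate synthetase (1.11 ± 0.18), HPT1, a salvage phosphoribosyltransferase (0.87 ± 0.11), and BAS1, a transcription activator of the ADE genes (0.46 ± 0.12). With an equal scale 1 member of the list was higher. AAH1, GUA1 and HPT1 fell in both media, and fell further in YPD.

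Within the inosine monophosphate dehydrogenase family, IMD2 was at -3.32 and -3.47 in MDN, against -0.29 and -0.94 in YPD (difference -2.78 ± 0.24). IMD3 had a difference of -2.49 ± 0.16, and IMD4 one of -0.40 ± 0.23, which was not called. Sequence similarity within the IMD family means that these spots may share signal. Pyrimidine genes showed little of this pattern: 1 of 13 was called, the uridine permease FUI1 at -1.34 ± 0.17, and the list median was -0.22. At equal scale 5 of the 13 were lower.

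Sulfur and methionine genes were divided. Of 28 measured members 14 were lower in MDN and 7 higher. The lower ones included sulfate uptake and reduction and the methionine synthase step: MET6 was at -1.22 and -1.0 in MDN, against 1.78 and 1.46 in YPD (difference -2.73 ± 0.16). MET17 and MET10, which act in sulfide incorporation and sulfite reduction, had differences of -1.96 ± 0.15 and -1.93 ± 0.11. The higher ones were the methionine permease MUP1, the methyltransferase MHT1 and 5 genes on the route from methionine through S-adenosylmethionine to cysteine. SAM2 was at 0.12 and 0.03 in MDN, against -1.51 and -1.56 in YPD (difference 1.61 ± 0.11), and SAM1, the other S-adenosylmethionine synthetase, had a difference of 1.08 ± 0.21. CYS4, cystathionine beta-synthase, had one of 1.44 ± 0.18, CYS3 one of 0.68 ± 0.13 and SAH1 one of 0.40 ± 0.11. At equal scale 13 were lower and 2 higher.

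**Figure D3:**
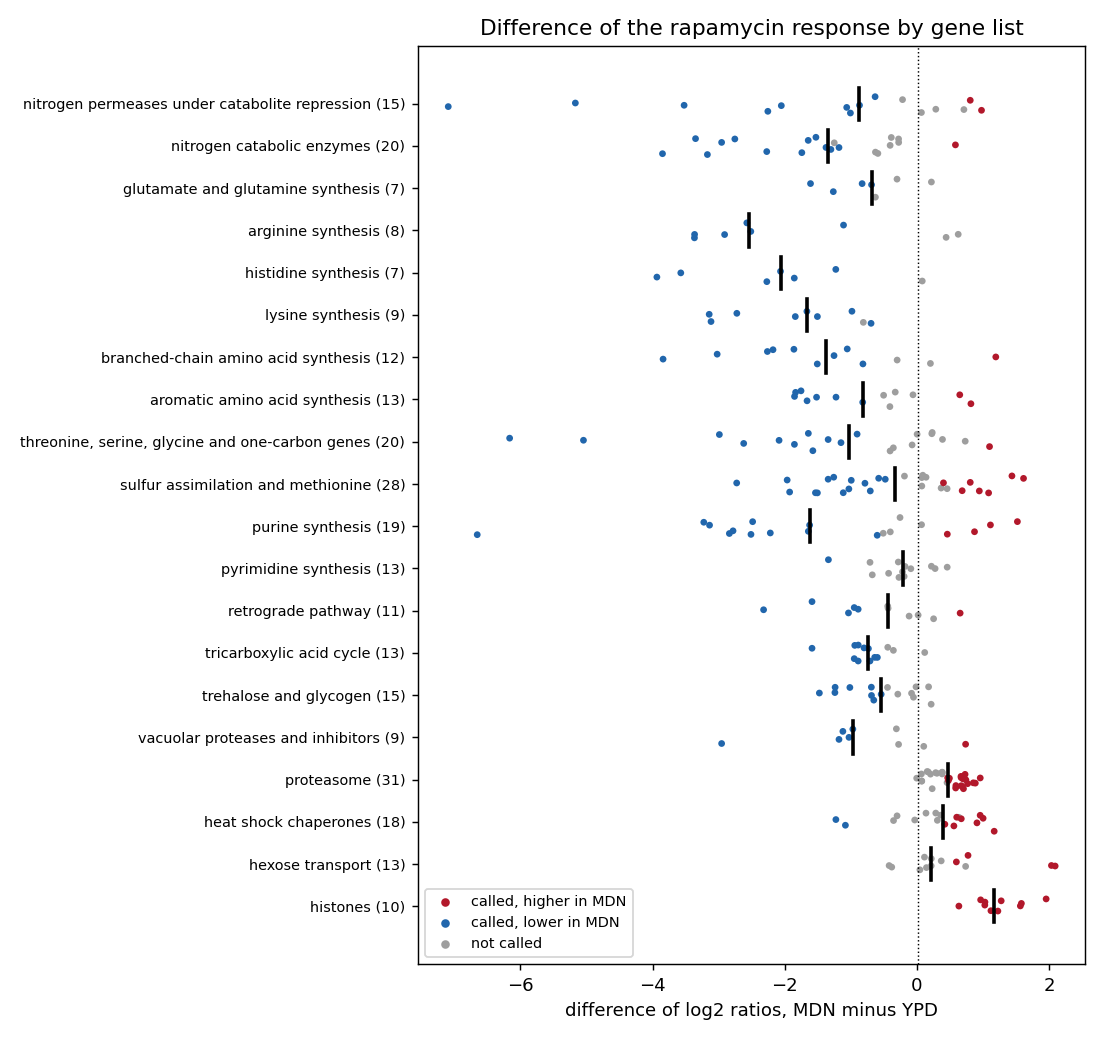
Difference of log2 ratios, MDN minus YPD (horizontal axis), for the measured members of 20 gene lists, with the number of members in parentheses. Red points were called higher in MDN, blue points lower, and grey points were not called. Black bars are list medians, and the dotted line is the median of all features, 0.02. Arginine synthesis has the lowest median at -2.54, and all 10 histone genes lie to the right.

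Several lists of carbon metabolism were lower in MDN. Tricarboxylic acid cycle genes were lower in MDN in 10 of 13 members with none higher, at a median of -0.73. ACO1, aconitase, was at 0.18 and 0.39 in MDN, against 1.82 and 1.92 in YPD (difference -1.59 ± 0.13). At equal scale 5 of the 13 were lower. In the retrograde pathway, which links mitochondrial state to glutamate supply, 5 of 11 were lower and 1 higher. At equal scale 3 were lower. ACO1, CIT1 and IDH2, among the 5, also count in the tricarboxylic acid cycle list, so the lists are not separate. DLD3, a lactate dehydrogenase, was at 1.04 and 0.87 in MDN, against 3.13 and 3.42 in YPD (difference -2.32 ± 0.15). CIT2, the peroxisomal citrate synthase, was at 2.24 and 2.01 in MDN, against 3.28 and 3.05 in YPD (difference -1.04 ± 0.15, and -0.34 with adjusted p = 0.0989 at equal scale). The respiratory chain was near the background, with 5 of 32 lower.

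Glycolytic genes were lower in MDN in 9 of 22 members, and 2 were higher. The pyruvate kinase gene CDC19 was at -1.36 and -1.18 in MDN, against 0.24 and 0.04 in YPD (difference -1.41 ± 0.14). FBA1, GPM1 and TDH3, the genes of aldolase, phosphoglycerate mutase and a glyceraldehyde phosphate dehydrogenase, had differences between -1.11 and -1.06. At equal scale the lower members numbered 14. Trehalose and glycogen genes were lower in 8 of 15, led by the glycogenin GLG1 (-1.48 ± 0.12), the trehalase NTH1 (-1.24 ± 0.12) and TSL1, a subunit of trehalose synthase (-1.24 ± 0.12). Of 9 vacuolar proteases and inhibitors 5 were lower, the proteases APE1, CPS1, PEP4 and PRC1 and the inhibitor TFS1 (-1.12 ± 0.16), and 1 was higher, the inhibitor PBI2 (0.74 ± 0.18).

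General stress genes as a list stood near the median of all features, at -0.06. Of 34 members 8 were lower (23.5%) and 3 higher (8.82%), beside 14.6% and 14.9% of all features. The share called either way was 32.4%, near the 29.5% of all features. HSP12, a membrane-associated heat shock protein, was at 0.74 and 0.01 in MDN, against 2.19 and 1.43 in YPD (difference -1.43 ± 0.35, adjusted p = 0.0362). HSP26, a small heat shock protein, was not called, at 0.51 ± 0.15 (adjusted p = 0.0603), but was called at equal scale (1.22, adjusted p = 0.00308). MSN4, an activator of stress genes, had a difference of -1.0 ± 0.20, with adjusted p = 0.0625 at equal scale.

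Genes of ribosome production separated into those of the ribosome itself and those that assemble it. Assembly genes had smaller decreases in MDN: 29 of 51 60S assembly factors and 19 of 47 small subunit processome and 40S assembly factors were higher in MDN and none was lower, against 14.9% of all features. Their medians in MDN were -1.29 and -1.24, against -2.15 and -2.25 in YPD. NOP15, a 60S assembly factor, was at -0.97 and -1.12 in MDN, against -2.56 and -2.64 in YPD (difference 1.55 ± 0.12). KRR1, needed for 40S formation, was at -1.36 and -1.29 in MDN, against -3.18 and -2.74 in YPD (difference 1.64 ± 0.18). NMD3, the 60S export adaptor, had a difference of 1.82 ± 0.26. RNA polymerase I and III genes were higher in 9 of 35 (25.7%) and lower in 1, RRN5. The share called either way, 28.6%, was near the 29.5% of all features. At equal scale 5 were higher, and the list median was 0.05, against 0.33 as deposited.

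These assembly differences depend on the scale of the arrays. With an equal scale, 8 of the 51 60S factors and 7 of the 47 40S factors were higher in MDN, while 2 and 5 were lower. The list medians were then 0.17 and 0.14. NMD3 (adjusted p = 0.0683) and the 60S factor BRX1 (adjusted p = 0.207) were among those that lost their calls.

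Ribosomal protein genes were lower in MDN more often than the 14.6% of all features, a count that depends on genes with very low ratios. Of 73 large subunit genes 30 were lower in MDN, and of 54 small subunit genes 24, with none higher. The medians were -4.32 and -4.22 in MDN, against -3.58 and -3.46 in YPD. RPS4A was at -5.64 on both MDN arrays, against -3.84 and -3.64 in YPD. RPL3 was at -4.64 on both MDN arrays, against -3.32 and -2.94 in YPD. Ratios were deposited in steps of 0.01, so a ratio of 0.05 or less is coarse, and 48 of the 73 and 32 of the 54 genes had such a ratio on at least 1 array. Left without those genes, 6 of 25 large subunit and 4 of 22 small subunit genes were lower, at medians of -0.19 and -0.20. This filter acts on the tested ratios themselves. Over all spots such ratios numbered 74 and 86 on the MDN arrays and 36 and 19 on the YPD arrays. It therefore takes out genes low in MDN more readily, and the smaller counts cannot be read as a lack of difference. With ratios floored at 0.05, 17 of the 73 and 17 of the 54 were lower, at medians of -0.34 and -0.46. At equal scale 60 of 73 and 44 of 54 were lower. Paired ribosomal protein genes are nearly identical, and their spots may share signal. Mitochondrial ribosomal proteins stayed near 0, with 4 of 67 higher and 2 lower.

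**Figure D4:**
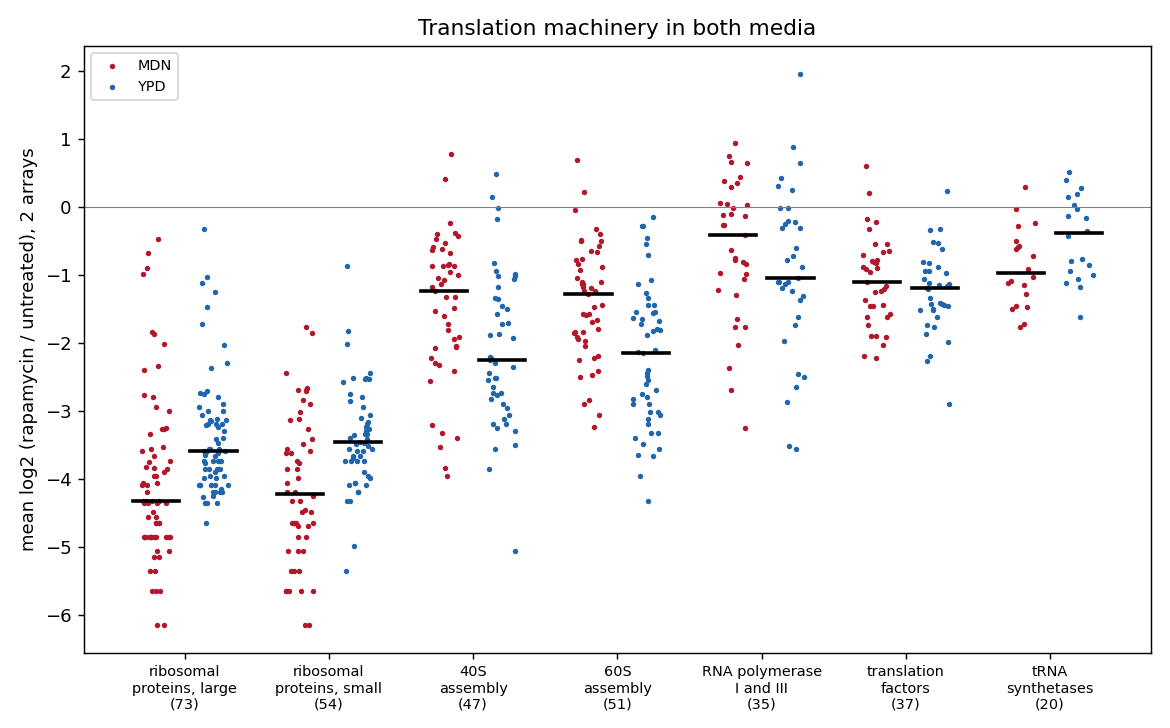
Mean log2 ratio of rapamycin-treated over untreated cells (vertical axis, 2 arrays per medium) for 7 groups of translation genes, with MDN in red at the left and YPD in blue at the right of each pair. Each point is a gene, black bars are medians, and numbers of genes stand in parentheses. Ribosomal protein medians lie lower in MDN, and medians of the assembly factors lie higher in MDN.

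Transfer RNA synthetases were lower in MDN in 7 of 20 members with none higher, and in 14 at equal scale. DED81, the asparaginyl enzyme, was at -1.43 and -1.51 in MDN, against -0.14 and -0.18 in YPD (difference -1.31 ± 0.11). Of 37 translation factors 8 were higher and 5 lower (21.6% and 13.5%), near the 14.9% and 14.6% of all features. The helicase DED1 had a difference of 1.2 ± 0.13, and the elongation factor 2 gene EFT1 one of -1.07 ± 0.15. Their median changed sign, at 0.24 as deposited and -0.22 at equal scale. Of 10 measured regulators of ribosomal genes 3 were higher in MDN (30%, beside 14.9% of all features) and none lower. The list median was 0.13. The 3 were SCH9, a kinase downstream of TORC1, RAP1 and FHL1, with differences of 1.23 ± 0.12, 0.95 ± 0.17 and 0.64 ± 0.11. SCH9 was at 0.55 and 0.41 in MDN, against -0.81 and -0.69 in YPD, on opposite sides of 0.

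All 10 measured histone genes were called higher in MDN, with a median difference of 1.17. Of these, 6 had means called up in MDN and down in YPD. HHF1, a histone H4 gene, was at 0.80 and 0.58 in MDN, against -1.43 and -1.09 in YPD (difference 1.95 ± 0.17, 3.87-fold, adjusted p = 0.00308). HHF2, HTA1, HTA2 and HHT1 had differences between 1.22 and 1.58. The smallest was that of the variant HTZ1, at 0.63 ± 0.12. At equal scale 9 of the 10 were called. The 2 copies of a core histone gene are close in sequence and may share signal. In the list of G1 cyclins and Start, 3 of 14 genes were higher in MDN (21.4%, beside 14.9% of all features) and none lower. They were CLN2 and the S-phase cyclin genes CLB5 and CLB6. CLB5 was at 0.43 and 0.33 in MDN, against -1.25 and -1.09 in YPD (difference 1.55 ± 0.12), and CLB6 had a difference of 1.26 ± 0.15. The G1 cyclin CLN3 was not called, at 0.18 ± 0.21, with a 95% interval from -0.36 to 0.71.

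Proteasome subunit genes were higher in MDN in 17 of 31 members with none lower, at a median of 0.48. RPN3, a lid subunit, was at 0.59 and 0.72 in MDN, against -0.40 and -0.20 in YPD (difference 0.96 ± 0.13). The largest differences of the list were under 2-fold, and no member passed a test against a minimum of 1.5-fold. Heat shock chaperones were higher in 8 of 18 and lower in 2. AHA1, a cochaperone of Hsp90, had a difference of 1.17 ± 0.15, and SSA2, an Hsp70, one of 0.96 ± 0.14. The chaperones lower in MDN were HSP78, of the mitochondrial matrix (-1.23 ± 0.17), and SSE2 (-1.08 ± 0.18). Autophagy genes were higher in 2 of 20 (10%), ATG31 and ATG5, and lower in 4 (20%). With 30% called in all, the list was near the 29.5% of all features.

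Transporters for amino acids, peptides and hexoses held 4 of the 10 highest places. The amino acid permease TAT1 was at 0.18 and 0.24 in MDN, against -2.94 and -2.32 in YPD (difference 2.84 ± 0.22, 7.16-fold, adjusted p = 0.00251). The branched-chain amino acid permease BAP2 was at 1.13 and 0.86 in MDN, against -1.12 and -0.89 in YPD (difference 2.00 ± 0.16). Both belong to the system that senses external amino acids, in which 4 of 19 members were higher and 4 lower. That is 21.1% each way, beside 14.9% and 14.6% of all features. OPT1, an oligopeptide transporter, was at 0.23 and 0.25 in MDN, against -2.25 and -2.74 in YPD (difference 2.73 ± 0.19). The peptide transporter PTR2 was not called, with a difference of 0.01 ± 0.16 and a 95% interval from -0.41 to 0.43.

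Among 13 hexose transport genes 4 were higher in MDN (30.8%, beside 14.9% of all features) and none lower. The share called either way was near the 29.5% of all features. The list median was 0.22, and 0.09 at equal scale. HXT2, a high-affinity transporter, was at -0.47 and -0.56 in MDN, against -2.74 and -2.47 in YPD (difference 2.09 ± 0.14). HXT5 rose in MDN, at 2.50 and 1.96, against 0.28 and 0.11 in YPD (difference 2.03 ± 0.21). HXT6 and HXT4 had differences of 0.77 ± 0.11 and 0.60 ± 0.15, and HXT4 lost its call at equal scale (adjusted p = 0.101).

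Of the other genes at the upper end, YHB1, a nitric oxide oxidoreductase, was at 0.96 and 1.17 in MDN, against -1.36 and -1.51 in YPD (difference 2.50 ± 0.14). PDC6, a minor pyruvate decarboxylase, and the metallothionein copies CUP1-1 and CUP1-2 also had opposite signs, with differences of 2.16 ± 0.22, 2.12 ± 0.16 and 2.02 ± 0.14. The CUP1 copies are near-identical and may share signal. HSP30, SUR2 and HTA1 belonged to the same class, at 1.81 ± 0.29, 1.73 ± 0.17 and 1.56 ± 0.16. MXR1, a methionine sulfoxide reductase, had the highest difference, 3.97 ± 0.98 (adjusted p = 0.0377), but it rests on YPD arrays at -1.25 and -4.32. With only the second YPD array kept it was 5.50, and with only the first kept it was 2.43. The low ratio on YPD array 2 is one of the coarse values, as is 1 of those of RMT2, an arginine methyltransferase with a difference of 2.55 ± 0.19.

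SNZ1 and SNO1, which act together in vitamin B6 synthesis, were lower in MDN, and SNZ1 was among the 10 lowest of all. SNZ1 was at 0.53 and 1.13 in MDN, against 5.34 and 4.88 in YPD (difference -4.28 ± 0.26), and SNO1 had a difference of -3.09 ± 0.33. SNZ3 was not called, at 0.32 ± 0.20. SNZ1 and SNO1 were the 2 members called of 15 in the vitamin B6 and thiamine list (13.3%, beside 29.5% of all features). YPK2, a kinase activated by TORC2, was at 0.37 and 0.51 in MDN, against 2.52 and 2.46 in YPD (difference -2.06 ± 0.12). Of the TOR kinases, neither was called: TOR1 was at 0.29 ± 0.17, with a 95% interval from -0.15 to 0.73, and TOR2 at -0.41 ± 0.20, from -0.92 to 0.10. In the phosphate list 3 of 18 members were called (16.7%), fewer than the 29.5% of all features, and the list median was 0.11. PHO84, the high-affinity phosphate transporter, was lower (-1.57 ± 0.11), and PHO3 and PHO5, acid phosphatases, were higher (1.75 ± 0.15 and 0.89 ± 0.15). In the zinc list 3 of 8 members were called (37.5%), beside 29.5% of all features. The share was lower in the iron (2 of 14, 14.3%), ergosterol (5 of 22, 22.7%), peroxisome (4 of 14, 28.6%) and mitochondrial import (5 of 21, 23.8%) lists. Medians of these lists lay between -0.32 and 0.06.

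Some strong responses were alike enough in both media for the difference not to be called, which does not show them to be equal. There were 877 features called up in both media and 677 called down in both without a called difference. The alanine transaminase ALT1 was at 3.08 and 2.79 in MDN, against 3.33 and 3.44 in YPD, and its difference of -0.45 ± 0.14 had a 95% interval from -0.83 to -0.08. For YHI9 the values were 3.68 and 3.53 in MDN, against 3.42 and 4.22 in YPD, with an interval from -0.93 to 0.51. HMX1, a heme oxygenase, PCL5, a cyclin, and PDH1, a methylcitrate dehydratase, had differences of -0.30, -0.36 and -0.48. At the lower end were RPS22A, RPS3, RPL5, RPL13A and RPL14A, whose MDN means lay between -5.64 and -4.85 and whose YPD means lay between -5.35 and -3.95. All 5 had coarse ratios, and RPL5, RPL13A and RPL14A were called lower in MDN at equal scale.

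The array of untreated MDN over untreated YPD shows where the media stood before rapamycin. It is 1 array with no replicate, so its values are described without a test, and a dye effect of a spot stays in them. Features called lower in MDN had a median log2 ratio of 0.25 on it (n = 795), those called higher had -0.25 (n = 815), and those not called had -0.07. For differences of at least 2-fold the medians were 0.57 for the lower (n = 324) and -0.52 for the higher (n = 166). The labels do not say whether the untreated RNA was the same as on the rapamycin arrays. If it was, its measurement error enters both values with opposite signs, and the part of this in the medians was not tested.

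Of 236 features at least 2-fold higher in untreated MDN than in untreated YPD, 141 (59.7%) were called lower in MDN for the rapamycin difference and 13 higher, against 14.6% and 14.9% of all features. Of 109 at least 2-fold lower in untreated MDN, 47 (43.1%) were called higher and 5 lower. Adding the difference to the untreated ratio gives a derived ratio of treated MDN over treated YPD, which assumes that both sets of untreated RNA were alike. The median derived ratio was -0.61 for features called lower in MDN and 0.51 for those called higher. Each lay on the other side of 0 from the untreated median. These groups were picked by the sign of the difference that the derived ratio adds, so this shift of the medians was built in by the choice. The derived ratio was closer to 0 than the untreated one for 309 of the 795 lower and 307 of the 815 higher features. Over all features it was closer for 2298 of 5422, and among those not called for 1682 of 3812. Most features were therefore farther from 0, whether called or not. Among features at least 2-fold apart before rapamycin, the derived ratio was closer to 0 for 190 of 236 and 90 of 109. These features were chosen for large values on the untreated array, which is part of the derived ratio. If the untreated RNA was shared, its error would also bring them closer. The part of this in the counts was not tested. GAP1 was at 6.75 untreated and at -0.34 derived with rapamycin, and MEP2 at 6.30 untreated and 1.14 derived. DUR3, DAL7, ARG7 and CPS1, all above 1.5 untreated, were between -0.44 and 0.72 when derived, as were LEU1 at 0.48 and GLN1 at 0.57. TAT1, BAP2 and HXT2, at -4.06, -4.06 and -3.06 untreated, were at -1.22, -2.06 and -0.97.

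For other genes the derived ratio was farther from 0 or on its other side. ADE17 was at 3.23 untreated and -3.43 derived, and SHM2 at 2.74 untreated and -3.42 derived, so that each passed from one side of 0 to the other. ARO9, AGP1 and CHA1, a serine and threonine deaminase gene, were lower in untreated MDN, at -2.18, -1.79 and -4.64, and their derived ratios were lower still, at -7.30, -5.31 and -5.95. With MMF1 and RPS22B these were the 5 features called lower in MDN although at least 2-fold lower in untreated MDN. They were chosen after their values were seen. HXT5 and SAM2 ran the opposite way, at 1.52 and 2.50 untreated and 3.55 and 4.11 derived. Histones were at a list median of 0.74 untreated and 1.98 derived.

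**Figure D5:**
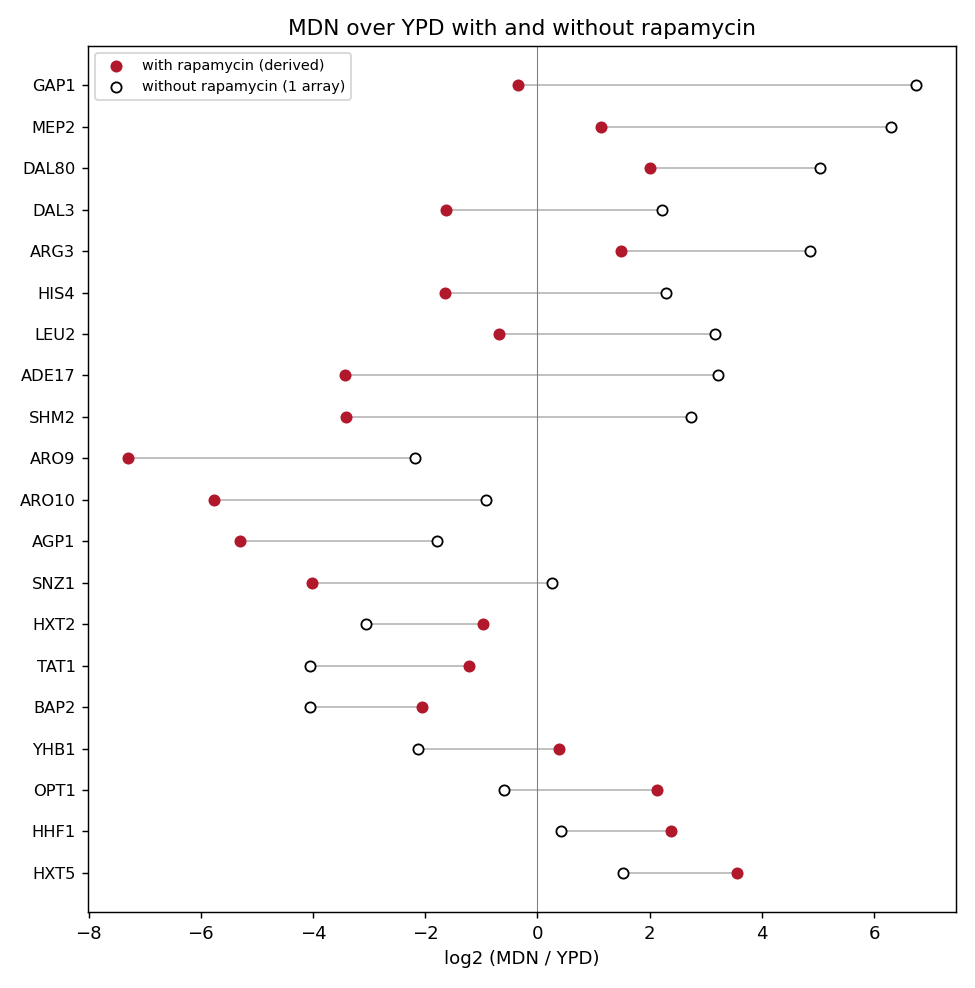
Log2 ratio of MDN over YPD (horizontal axis) for 20 genes, without rapamycin (open circles, 1 array) and with rapamycin (red circles, derived as the untreated ratio plus the difference MDN minus YPD). GAP1 is at 6.75 without and -0.34 with rapamycin, while ARO9 is at -2.18 without and -7.30 with it.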

How the data were processed

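The authors deposited log2 ratios of the 2 channels for 6210 spots, a scale found from the values: raised to the power of 2, 100% are whole multiples of 0.01 (tolerance 1e-04). The labels state no scanner, background correction or normalization, and medians of the 4 rapamycin arrays lay between 0 and 0.07. Missing spots numbered 317 and 376 in MDN and 89 and 181 in YPD. Gene names came from the platform annotation, with 5595 spots named, 615 unnamed and 0 with several names. Precision is limited by the number of arrays.

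The 4 rapamycin arrays entered a limma 3.58.1 model (R 4.3.3) holding 1 mean for each medium, moderated by eBayes, with 2 residual and 3.0 prior degrees of freedom and two-sided tests adjusted by Benjamini-Hochberg over 5488 features. An exact permutation of 2 against 2 arrays cannot give a p under 0.333. On simulated data the fit recovered 6%, 64%, 94% and 98% of genes with 1.5-, 2-, 4- and 8-fold differences, with 6 false calls. The simulation gave differences to far fewer genes than were called here. Its noise was independent, with spreads shuffled between genes and no effect shared across an array. These rates therefore need not hold for the real arrays. Genes were named by rule: 10 at each end, up to 6 per list, 10 in each opposite class, 5 alike at each end and a fixed set. AAH1, ARG8, ASP1 and its ASP3 relatives, BAS1, CHA1, CYS3, CYS4, GLY1, GUA1, HIS6, HPT1, HTZ1, IMD3, IMD4, MHT1, MMF1, MUP1, ORT1, PUT1, RPS22B, SAH1 and SAM1 fall outside the rule and were chosen after their values were seen. The members and the 49 lists were chosen with earlier results of these data known. Alternatives covered centring, scale, missing values, spots, blocks, the variance prior, low ratios, a minimum fold and each array left out. Equal scale means median centring followed by scaling arrays to the same median absolute value. Promoter motifs were not analysed here. Plots used matplotlib 3.10.9 under Python 3.11.15.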

Additional observations from a re-analysis of the deposited data

Results flagged for a closer look

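The test of the difference itself, MDN minus YPD, separated the response of the 2 media for 1620 features. The 20 named genes with opposite called means and the largest differences in each direction came out of that test. Those down in MDN and up in YPD were the permease GAP1 (-7.09), ADE17 (-6.65) and ADE4 (-3.23) of purine synthesis, SHM2 (-6.16) and GCV2 (-5.05) of one-carbon metabolism, ARO9 (-5.12) and ARO10 (-4.86) of aromatic amino acid breakdown, HIS4 (-3.93), LEU2 (-3.84) and the allantoicase gene DAL2 (-3.35). Those up in MDN and down in YPD were YHB1 (2.5), PDC6 (2.16), CUP1-1 (2.12), CUP1-2 (2.02), BAP2 (2.00), the histone genes HHF1 (1.95), HHF2 (1.58) and HTA1 (1.56), the stress-induced HSP30 (1.81) and the sphingolipid hydroxylase SUR2 (1.73). No group had 4 arrays or more, so no array could be tested for lying apart from the rest of its group.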

How the results depend on the processing

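Each medium has 2 arrays, and leaving out any 1 gave 0 called features, 0 at least 2-fold, 0 in each opposite class and 0 lists with 50% or more of their members called one way. These fits take the spread of the lone array from the other medium. As fitted there were 1620 called features and 18 such lists. Calls numbered 1680 (750 higher and 930 lower in MDN) with centring, 1470 (605 and 865) at equal scale, 1562 with at least 1 value per medium, 1629 by spot, 1719 with a robust prior, 1569 with ratios floored at 0.05 and 1641 without features at low ratios. At equal scale the count at least 2-fold higher was 101, and DAL5 turned to 0.0744, against -1.06 as fitted. Against a minimum of 1.5-fold, 232 were called (51 higher, 181 lower), the opposite classes held 13 and 1 and 5 lists remained past the mark. With the array number as a replicate block 1185 were called and 59 rather than 90 features were up in MDN and down in YPD. Same-numbered arrays had deviations with r = -0.10, so they share a number only, and a crossed block, chosen after seeing the data, gave 1387. Of 250 called named genes, 190 kept their call under every setting other than the minimum fold and a left-out array. Promoter motifs could not be run, since no promoter sequences were at hand.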
